A study of Homo sapiens with 4 samples.

Results

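A set of 9 genes for cell surface antigens of carcinomas, chosen by symbol among the 19729 genes of the deposited tables, was followed after APC silencing in HT-29 colorectal cancer cells. The set holds the adhesion molecules CEACAM1, CEACAM5, CEACAM6, EPCAM and GPA33, the receptor tyrosine kinases ERBB2, ERBB3 and MET, and the tetraspanin TSPAN8. HT-29 is a microsatellite stable human line with truncated APC and mutant BRAF. In both conditions the cells carried a lentiviral doxycycline (DOX)-inducible shRNA, directed against APC (APC shRNA) or non-silencing (NonS), and received 500 ng/ml DOX for 72 h at passages 3 to 5 after transduction. Polyadenylated RNA was sequenced in duplicates of each condition, replicates I and II, giving 4 libraries. A single APC hairpin was compared with a single control hairpin, so a difference between the cell populations other than APC cannot be told apart from the silencing.

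Surface antigens of this kind are used to follow colorectal cancer or to direct antibodies to it. CEACAM5, the carcinoembryonic antigen, and CEACAM6 are tethered to the membrane by a lipid anchor, whereas CEACAM1 spans it and has a cytoplasmic tail that can inhibit signaling. GPA33, the A33 antigen, is an immunoglobulin superfamily protein largely restricted to intestinal epithelium. EPCAM is an adhesion molecule of simple epithelia, and TSPAN8 organizes membrane microdomains with integrins and other partners. ERBB2 has no known ligand of its own and pairs with ERBB3, whose kinase is weak, while MET is the receptor of hepatocyte growth factor.

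The deposited values are whole numbers that behave as scaled scores and not as read counts, so the number of reads behind a value is unknown and no counting interval can be given. Pairs of values are given with replicate I first. The sums of all values ranged from 398338 to 413595 per library. Differences were taken on the log2(value + 1) scale, which understates the change of low genes, and tested with limma across the 5376 genes whose mean reached 10, with Benjamini-Hochberg adjustment and a threshold of 0.05. A gene was counted as separated when both libraries of a condition lay above both of the other. The labels call the duplicates biological, and with 2 libraries against 2 the smallest two-sided p of an exact permutation test is 0.333. AXIN2, NKD1, NOTUM, SP5 and ASCL2, which are Wnt target genes, were all higher after APC silencing (5 of 5 past the threshold). The study named these 5 as raised in the same RNA-Seq, so they are no independent check. NKD1, NOTUM, SP5 and ASCL2, with NonS values of at most 4, met the filter only through their APC shRNA values. The value of APC itself was 3 in the first NonS library and 0 elsewhere, too low to check the silencing here. From its own assays, the study reported silencing of APC mRNA and protein in these cells. Its DESeq2 comparison of the same RNA-Seq also listed APC among the downregulated genes. Of 9 colorectal epithelium markers, KRT8 was listed at 1202 to 1534, CDX2 at 0 in both NonS libraries and CDH17 at no more than 2, and 12 of 13 markers of leukocytes, endothelium and fibroblasts were at 0 in every library. The exception was CD68 with 5 and 6 in NonS and 3 in each APC shRNA library.

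None of the 6 genes of the set that could be tested passed the threshold. The smallest adjusted p of any gene in limma was 0.0423, so missing the threshold does not show that a gene was unchanged. In limma, 233 genes (4.33% of those tested) were called higher with APC shRNA and 199 (3.7%) were called lower. At an unadjusted p under 0.05, 1 of the 6 genes (TSPAN8) was found, against 35.6% of all genes tested. The log2 difference of the 6 genes had a median of -0.12, beside 0.03 over all genes tested. ERBB2 was separated upwards and CEACAM1, MET and TSPAN8 downwards, while EPCAM and ERBB3 overlapped. Separation was common in these libraries, with 33% of the genes tested separated upwards and 27.5% downwards. CEACAM5, CEACAM6 and GPA33 had means of 6.75, 9 and 1 and stayed under the filter, and all 3 were separated downwards. The share of separated genes under the filter was not computed, so these 3 have no background to be read against.

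**Figure D1:**
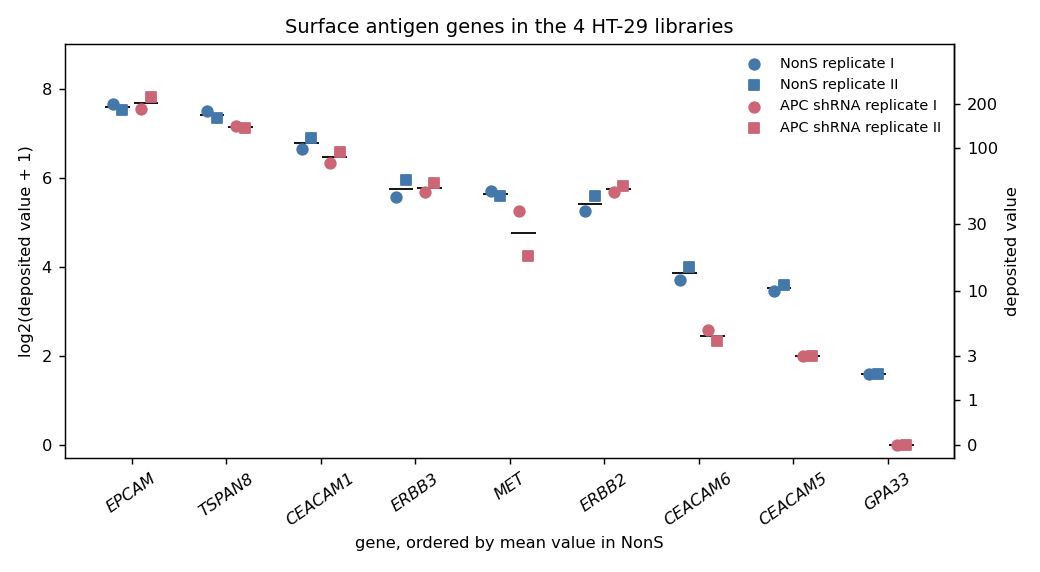
Deposited value of each gene in the 4 libraries, on a log2(value + 1) axis with the values themselves on the right. Points are single libraries (circles replicate I, squares replicate II) and horizontal lines the mean of the log2 values per condition. EPCAM, TSPAN8 and CEACAM1 stand at the top in both conditions, and the gap between conditions is widest for CEACAM6, CEACAM5 and GPA33 at the low end.

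In NonS cells the levels of the 9 genes spanned from a mean of 192 for EPCAM to 2 for GPA33. The values seem to be scaled by transcript length already, which allows a comparison of levels between genes as far as that holds. EPCAM (192 ± 12.7, SD, n = 2) was followed by TSPAN8 (170 ± 12.7, SD, n = 2), and the higher TSPAN8 library at 179 was just under the lower EPCAM library at 183. CEACAM1 came next with 108.5 ± 13.4 (SD, n = 2). ERBB3 (53.5), MET (49) and ERBB2 (42) formed a middle group whose libraries touched or overlapped, with 46 to 61, 47 to 51 and 37 to 47. CEACAM6 (13.5) and CEACAM5 (10.5) were lower, and GPA33 was listed at 2 in both libraries. EPCAM had 236 genes above it in NonS and GPA33 9763. Dividing the values by transcript length once more exchanged EPCAM with TSPAN8 and MET with ERBB2 and left the other ranks. After APC silencing the order was the same except that ERBB2 stood above MET. EPCAM, TSPAN8 and CEACAM1 made up between 71.6% and 76.8% of the summed value of the 9 genes in every library.

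The CEACAM genes lie on chromosome 19 of GRCh38 (GENCODE v29, as for all gene positions here). CEACAM5 extends from 41708585 to 41729798 (ENSG00000105388) and CEACAM6 from 41750977 to 41772208 (ENSG00000086548) on the plus strand, 21.2 kb apart, and CEACAM1 from 42507304 to 42561234 (ENSG00000079385) on the minus strand, 735 kb beyond CEACAM6. The 250 bases before the RefSeq start of each gene (GRCh38.p14, 5′ to 3′ along the gene) are shown. For all 3 genes that start lies inside the GENCODE extent given above, which reaches further upstream, most of all for CEACAM1. The windows were chosen because they resemble one another while the genes differed in the size of their difference. Capitals mark CACGTG, an E-box, which reads the same on both strands.
CEACAM5, chr19:41708376-41708625, plus strand: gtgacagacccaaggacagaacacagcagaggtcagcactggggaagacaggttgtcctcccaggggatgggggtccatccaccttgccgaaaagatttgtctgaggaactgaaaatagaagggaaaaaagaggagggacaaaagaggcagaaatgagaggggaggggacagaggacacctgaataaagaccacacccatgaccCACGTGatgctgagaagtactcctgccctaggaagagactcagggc
CEACAM6, chr19:41755280-41755529, plus strand: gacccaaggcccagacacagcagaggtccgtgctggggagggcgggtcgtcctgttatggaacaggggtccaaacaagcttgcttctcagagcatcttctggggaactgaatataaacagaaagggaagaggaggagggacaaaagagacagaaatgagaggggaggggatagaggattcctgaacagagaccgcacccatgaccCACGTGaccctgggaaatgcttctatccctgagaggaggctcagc
CEACAM1, chr19:42528482-42528731, minus strand: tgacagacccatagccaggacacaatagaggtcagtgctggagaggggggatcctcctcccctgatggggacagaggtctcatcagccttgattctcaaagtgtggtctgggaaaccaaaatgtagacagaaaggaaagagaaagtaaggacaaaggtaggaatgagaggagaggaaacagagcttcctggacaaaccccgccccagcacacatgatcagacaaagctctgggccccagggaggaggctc
The CEACAM5 and CEACAM6 windows were identical at 76.4% of 242 aligned bases, CEACAM1 and CEACAM6 at 69.6% of 240 and CEACAM1 and CEACAM5 at 64.1% of 237. The E-box began at -46 in CEACAM5 and at -45 in CEACAM6, and the aligned letters in CEACAM1 were CACATG. It is found in 6.34% of 35116 RefSeq windows of the same length. CTTTGAT on either strand, the core bound by TCF factors, occurs in 2.26% of windows and in no window of the 7 genes of the set that had an entry (the 3 CEACAMs, GPA33, ERBB2, MET and TSPAN8). TTTATG on either strand, a core bound by CDX factors, occurs in 9.64% of windows and within the set in both windows of TSPAN8. TATAAA on either strand, the letters of a TATA box, occurs in 10.7% of windows and within the set only in that of CEACAM6. These matches describe the letters in the windows and say nothing of binding.

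CEACAM5 and CEACAM6 showed the largest relative differences among genes of the set that were above 0 in both conditions. CEACAM5 had NonS values of 10 and 11 against 3 and 3 with APC shRNA, a mean of 28.6% of NonS and a log2 ratio of means of -1.81. CEACAM6 had NonS values of 12 and 15 against 5 and 4 with APC shRNA, 33.3% of NonS and a log2 ratio of -1.58. For both genes every NonS library lay above every APC shRNA library. As these are bulk samples, fewer cells with the transcript and less of it per cell cannot be told apart. If the values were rounded to the nearest whole number, rounding alone allows a log2 ratio between -2.14 and -1.52 for CEACAM5 and between -1.81 and -1.38 for CEACAM6. With 1 added before taking logs, the differences were -1.52 and -1.40. When all genes above 0 in any library were tested (12799 genes, of which 4.02% were lower at an adjusted p under 0.05 in limma), CEACAM5 was past the threshold (standard error 0.06, adjusted p = 0.00591 from limma) and CEACAM6 was not (standard error 0.18, adjusted p = 0.0643 from limma). The APC shRNA duplicates of CEACAM5 were identical, and in that test a single rounding step between identical duplicates also passed, as for the ubiquitin ligase CBLB with 2 and 2 against 3 and 3 (adjusted p = 0.00121 from limma). The p of CEACAM5 is therefore not a measure of biological spread. At a pseudocount of 5 the differences shrank to -0.95 and -0.96, since both genes are low.

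CEACAM1, the most abundant of the family, had NonS values of 99 and 118 against 79 and 95 with APC shRNA. The higher APC shRNA library lay just under the lower NonS library. Its log2 difference of -0.32 had a standard error of 0.15 in limma (adjusted p = 0.242), with an APC shRNA mean of 80.2% of NonS. Between libraries of the same number the difference was -0.32 (I) and -0.31 (II), though the labels do not say what a number marks. CEACAM5 and CEACAM6 together made up 18.2% (I) and 18.1% (II) of the summed value of the 3 genes in NonS, against 9.20% (I) and 6.86% (II) with APC shRNA. Both APC shRNA shares were thus below both NonS shares. The other family members were low. CEACAM3 and CEACAM8 were listed at 1 in every library, CEACAM19 at 2 or 3 and CEACAM7 at 1 in a single library, and 5 of the 12 CEACAM genes were at 0 throughout.

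Close paralogs could exchange reads of 50 bases, the read length of the study. Of the 50-base windows in CEACAM5 transcripts of GENCODE v29, 16.4% also occur in a transcript of another gene, against 6.99% for CEACAM6 and 3.29% for CEACAM1. Most of these CEACAM5 windows (529 of 570) are shared with AC243967.1, a gene that overlaps 544 exonic bp of CEACAM5 and 172 of CEACAM6 on the same strand. Only 40 windows occur in both CEACAM5 and CEACAM6, 35 in CEACAM1 and CEACAM6, and 21 in CEACAM1 and CEACAM5. GPA33 and TSPAN8 had no shared window.

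GPA33 (ENSG00000143167) lies on chromosome 1 from 167052836 to 167166479 on the minus strand. It had NonS values of 2 and 2 and was listed at 0 in each APC shRNA library, so no fold is given. The conditions did not overlap, at a level close to the rounding step of 1. In the study, a DESeq2 comparison of read counts listed GPA33 among the genes downregulated by APC silencing. In the test of all genes above 0, GPA33 was lower with a difference of -1.58 on the log2(value + 1) scale (adjusted p = 0.000106 from limma). Its duplicates were identical in both conditions, so the same limit of the test applies as for CEACAM5. The difference was -4.39 at a pseudocount of 0.1 and -0.49 at a pseudocount of 5.

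Among 5376 tested genes, the profiles nearest to GPA33 by Euclidean distance of centered log2(value + 1) over the 4 libraries were those of UGT1A8, IHH, HK2, UGT1A10 and FA2H, at distances from 0.157 to 0.227. The GPA33 profile comes from values of 2 and 0, and its size depends on the pseudocount of 1. Whether the same genes are nearest at another pseudocount was not tested. Their lower APC shRNA values follow from the choice by profile, and UGT1A8, IHH, HK2 and FA2H met the filter only through their NonS values. UGT1A8, a glucuronosyltransferase of the gut, had NonS values of 21 and 23 against 6 and 6 with APC shRNA. UGT1A10 was listed at 38 and 43, then 12 and 11, but both belong to a locus whose transcripts share exons, which makes their division uncertain. IHH, a hedgehog ligand of differentiated colonocytes, had NonS values of 17 and 17 against 6 and 5 with APC shRNA. CDX1, an intestinal homeobox factor picked with its values in view, had the same values as GPA33, namely 2 in both NonS and 0 in both APC shRNA libraries. KLF5, a zinc finger factor of proliferating crypt cells, had NonS values of 100 and 88 against 49 and 52 with APC shRNA (log2 difference -0.88, adjusted p = 0.0461 from limma). It was the only one of 3 tested intestinal factors past the threshold. HNF4A (-0.55, adjusted p = 0.0829 from limma) was not past it, and CDX2 had NonS values of 0 and 0 against 2 and 4 with APC shRNA.

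EPCAM (ENSG00000119888) lies on chromosome 2 from 47345158 to 47387601 on the plus strand. It had NonS values of 201 and 183 against 186 and 224 with APC shRNA, and the conditions overlapped. Its log2 difference of 0.09 had a standard error of 0.13 in limma (adjusted p = 0.645). The libraries numbered I differed by -0.11 and those numbered II by 0.29, so the sign of the difference was not the same in both.

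None of 8 tested genes among 15 EPCAM partners and proteases was past the threshold. Of the 8, 3 were separated upwards and 1 downwards, beside 33% and 27.5% of all genes tested. Their median log2 difference was 0.31. SPINT1, an inhibitor of membrane-bound serine proteases, had NonS values of 92 and 117 against 148 and 187 with APC shRNA (log2 difference 0.68, adjusted p = 0.123 from limma). PSENEN, a γ-secretase subunit, was listed at 44 and 52, then 66 and 71 (adjusted p = 0.0883 from limma). CLDN7, a claudin that binds EPCAM, was listed at 79 and 95, then 61 and 70 (log2 difference -0.40, adjusted p = 0.159 from limma).

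TSPAN8 (ENSG00000127324) lies on chromosome 12 from 71125085 to 71441898 on the minus strand. It had NonS values of 179 and 161 against 143 and 138 with APC shRNA, so both NonS libraries were above both APC shRNA libraries. The log2 difference of -0.27 had the smallest standard error of the 6 tested genes (0.08, unadjusted p = 0.0425, adjusted p = 0.129 from limma), with an APC shRNA mean of 82.6% of NonS. TSPAN8 has the lowest GC content of the set (40.9% in the longest transcript). When the trend of the values on GC content was removed from each library, its difference was -0.06. Of 33 tetraspanin genes 15 were tested, and TSPAN5 alone passed the threshold, with 5 in both NonS libraries and 14 and 16 after silencing (log2 difference 1.41, adjusted p = 0.0423 from limma). With a mean of 10, TSPAN5 met the filter only through its APC shRNA values, so that the difference itself brought it into the test. The 15 genes, TSPAN8 included, had a median log2 difference of 0.31, with 7 genes separated upwards and 4, TSPAN8 among them, downwards. Over all genes tested, the shares were 33% and 27.5%. TSPAN14, counted among the 7, also met the filter only through its APC shRNA values. TSPAN1 had NonS values of 171 and 244 against 105 and 154 with APC shRNA, without overlap (adjusted p = 0.219 from limma).

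**Figure D2:**
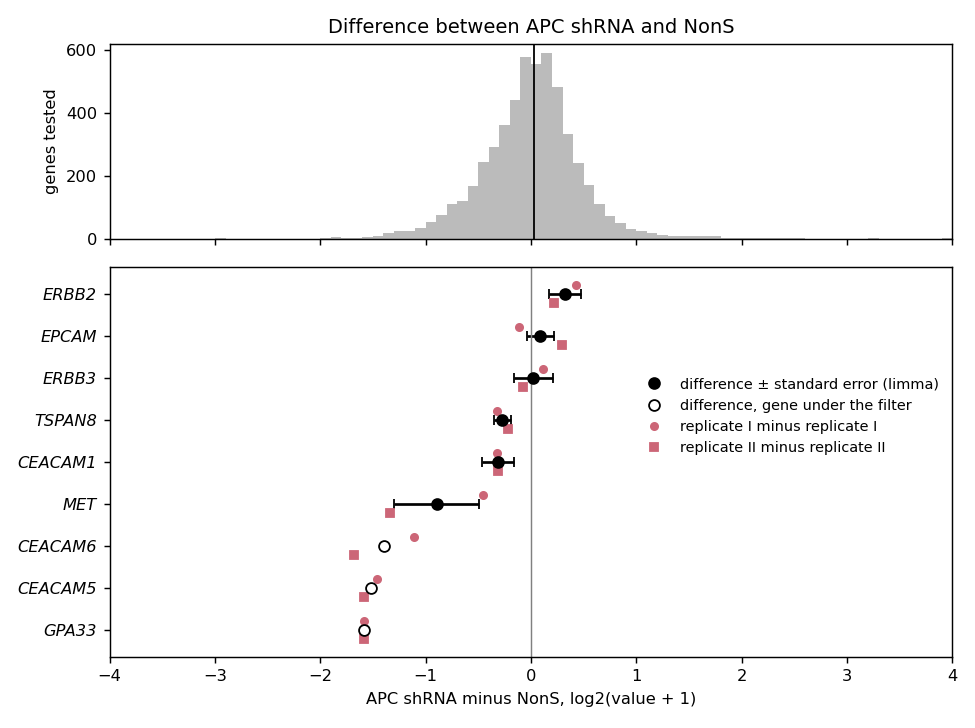
Difference between APC shRNA and NonS on the log2(value + 1) scale. Top, number of genes tested per bin of 0.1, with genes beyond 4 in the last bin and the median of 0.03 as a line. Bottom, the 9 genes with limma's standard error as bars for the 6 tested genes, and with the difference between libraries of the same number as small symbols. The black points run from -1.58 for GPA33 to 0.32 for ERBB2, and the small symbols of EPCAM and ERBB3 lie on opposite sides of 0.

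MET (ENSG00000105976) lies on chromosome 7 from 116672390 to 116798386 on the plus strand and had the largest difference and the widest spread of the tested genes. It had NonS values of 51 and 47 against 37 and 18 with APC shRNA. Both APC shRNA libraries were below NonS, but they differed from each other by 1 on the log2 scale, against 0.12 between the NonS libraries. The log2 difference of -0.89 had a standard error of 0.40 in limma (adjusted p = 0.223), and the APC shRNA mean was 56.1% of NonS. Without APC shRNA replicate II it was -0.39 and without APC shRNA replicate I -1.39. The MET list of 13 genes, which includes MET, had 7 tested members and none past the threshold. The 7 had a median log2 difference of 0.12, with 4 genes separated upwards and 3, MET among them, downwards. Over all genes tested, the shares were 33% and 27.5%. HGF, the ligand of MET, was at 0 in every library. MST1R, the paralogous receptor RON, had NonS values of 22 and 25 against 14 and 15 with APC shRNA (log2 difference -0.66, adjusted p = 0.0543 from limma). PTPN1, a phosphatase that acts on MET, was listed at 23 and 27, then 30 and 39 (log2 difference 0.44, adjusted p = 0.195 from limma).

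ERBB2 was the only gene of the set whose APC shRNA libraries lay above its NonS libraries. It (ENSG00000141736) lies on chromosome 17 from 39687914 to 39730426 on the plus strand and had NonS values of 37 and 47 against 50 and 55 with APC shRNA. Its log2 difference of 0.32 had a standard error of 0.15 in limma (adjusted p = 0.235), with an APC shRNA mean of 125% of NonS. Between libraries of the same number the difference was 0.42 (I) and 0.22 (II). ERBB2 shares 571 exonic bp with MIEN1 and 194 with PGAP3 on the opposite strand. The kit was stranded but the strand option of the counting is not given in the sources used here, so reads of these stretches may not be told apart.

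ERBB3 (ENSG00000065361) lies on chromosome 12 from 56076799 to 56103505 on the plus strand. It had NonS values of 46 and 61 against 50 and 58 with APC shRNA, and both APC shRNA values lay between the NonS values. The log2 difference of 0.02 had a standard error of 0.19 in limma (adjusted p = 0.947). The ratio of ERBB2 to ERBB3 had NonS values of 0.804 (I) and 0.770 (II) against 1 (I) and 0.948 (II) with APC shRNA, higher in each APC shRNA library than in each NonS library.

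Of 25 ERBB receptors, ligands and adaptors, 8 were tested, ERBB2 and ERBB3 included, and none passed the threshold. The 8 had a median log2 difference of 0.26, with 4, ERBB2 among them, separated upwards and none downwards. Over all genes tested, the shares were 33% and 27.5%. GRB7, an adaptor encoded close to ERBB2, had NonS values of 21 and 26 against 43 and 48 with APC shRNA (log2 difference 0.93, adjusted p = 0.0582 from limma). LRIG1, an inhibitor of ERBB receptors, was listed at 8 and 9, then 11 and 13 (log2 difference 0.45, adjusted p = 0.109 from limma). With a mean of 10.25, LRIG1 met the filter only through its APC shRNA values, though it counts among the genes separated upwards. EGFR, which stayed under the filter, had NonS values of 9 and 11 against 6 and 6 with APC shRNA. ERBB4 and the neuregulins NRG1, NRG2, NRG3 and NRG4 were at 0 in every library.

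Replicate II differed from replicate I in a similar way in both conditions for several genes of the set. On the log2(value + 1) scale, CEACAM1 was higher in replicate II by 0.25 in NonS and by 0.26 in APC shRNA, ERBB2 by 0.34 and 0.13, and ERBB3 by 0.40 and 0.21. TSPAN8 was lower in replicate II, with differences of -0.15 and -0.05. EPCAM differed by -0.13 in NonS and by 0.27 in APC shRNA, and CEACAM6 by 0.30 and -0.26, so their replicates moved in opposite directions.

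Genes related to the set were looked up in lists. Among 37 other carcinoma surface antigens, 22 were tested, 2 were higher and 0 were lower in limma, and the median log2 difference was 0.06. PROM1, the stem cell antigen CD133, rose from 19 in both NonS libraries to 29 in both APC shRNA libraries (log2 difference 0.58, adjusted p = 0.0423 from limma). As its duplicates were identical in both conditions, that p is not a measure of biological spread. CD276, an immune checkpoint molecule, rose from 14 and 16 to 29 and 32 (log2 difference 0.98, adjusted p = 0.0452 from limma). The antigens were separated upwards in 6 and downwards in 6 of the 22, beside 33% and 27.5% of all genes tested. CD47, counted among those separated downwards, met the filter only through its NonS values. Among 10 relatives of GPA33 in the JAM and CTX group, 3 were tested and 3 were at 0 throughout. ESAM, an adhesion molecule first described in endothelium, had NonS values of 14 and 19 against 5 and 5 with APC shRNA and was called lower (log2 difference -1.53, adjusted p = 0.0465 from limma). It met the filter only through its NonS values, and its adjusted p from limma was 0.060 when all genes above 0 were tested. VSIG2, another relative, had NonS values of 65 and 89 against 46 and 59 with APC shRNA (adjusted p = 0.212 from limma), and F11R, the junctional adhesion molecule JAM-A, was listed at 67 and 77, then 76 and 84. Of the 9 colorectal epithelium markers, 7 were tested, 0 were higher and 1 was lower in limma, with a median log2 difference of 0.0042. Of the 7, 2 were separated upwards and 2 downwards, beside 33% and 27.5% of all genes tested. The called marker was LGALS4, a galectin of colonic epithelium, which fell from 557 and 646 to 175 and 147 (log2 difference -1.90, adjusted p = 0.0423 from limma). The other markers without overlap did not pass the threshold. VIL1, an actin-binding protein of microvilli, had a log2 difference of 0.29 (adjusted p = 0.123 from limma), the keratin KRT18 of 0.31 (adjusted p = 0.138 from limma) and CDH1, E-cadherin, of -0.44 (adjusted p = 0.145 from limma). KRT20 was listed at 180 and 266, then 195 and 247. The part of these markers in the values of the surface antigens was not tested.

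**Figure D3:**
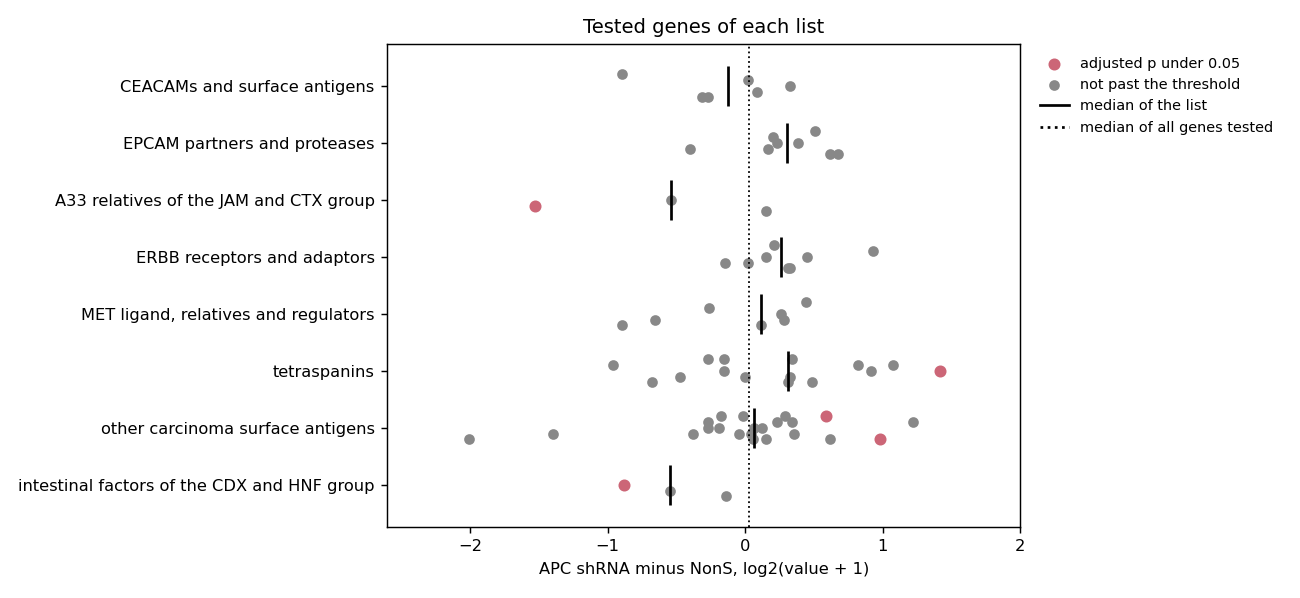
Difference between APC shRNA and NonS on the log2(value + 1) scale for the tested genes of each list. Points are genes, red where limma's adjusted p was under 0.05, with a line at the median of the list and a dotted line at the median of all genes tested, 0.03. The 6 tested CEACAMs and surface antigens hold no red point, and their median of -0.12 lies left of the dotted line, between the tetraspanins at 0.31 and the intestinal factors at -0.55.

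Leaving out each library in turn changed the differences of the tested genes to a different extent. TSPAN8 stayed between -0.35 and -0.20 and CEACAM1 between -0.45 and -0.18. ERBB2 ranged from 0.15 to 0.49 and MET from -1.39 to -0.39, each with the same sign throughout. EPCAM (-0.04 to 0.22) and ERBB3 (-0.18 to 0.22) changed sign.

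**Figure D4:**
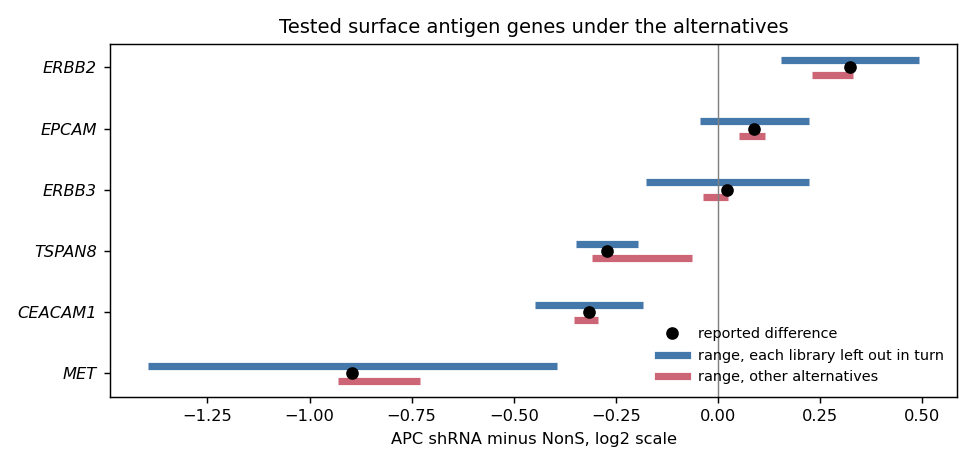
Range of the log2 difference between APC shRNA and NonS for the 6 tested genes, when each library was left out in turn (blue) and under the other processing alternatives (red), with the reported difference as a black point. The blue bar is widest for MET, from -1.39 to -0.39, and the blue bars of EPCAM and ERBB3 cross 0.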

How the data were processed

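RNA-Seq of HT-29 cells with DOX-induced APC shRNA or NonS shRNA was analyzed in 4 libraries, grouped by the sample labels. Per the study's methods, quality filtering and polyA trimming came first, after which the authors aligned the 50-base reads to human genome assembly 38 (TopHat2), assigned them to GENCODE v29 genes (htseq-count) and ran DESeq2 1.4.1. GEO's processing notes list hg19 as the build. The deposited tables give each gene 1 whole number, treated here as a score of unstated scale, because the variance of low genes between replicates was below that of read counts (0.474 of the Poisson value for NonS, 0.345 for APC shRNA) and value times transcript length in kb summed to between 980841 and 984873 per library. Depth in reads is unknown. The deposited comparison table (fold changes and adjusted p-values) was not used.

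Conditions were compared on log2(value + 1) using limma 3.58.1 under R 4.3.3 (mean-variance trend, Benjamini-Hochberg adjustment over all genes with a mean of at least 10, adjusted p under 0.05). The test was tried on simulated data. Further summaries used Python 3.11.15 and pandas 2.3.3. The 9 genes, the gene lists and the tests were chosen with earlier results of these data known. Named were the 9 genes, the check genes, from each list the genes past the threshold or otherwise those with the largest differences among the tested ones, and the 5 tested genes nearest to the gene with the largest difference. Beyond this rule, KRT8, KRT18, KRT20, VIL1, CDH1, CBLB, CDX1, CDX2, CDH17, CD68, CD47, HNF4A, TSPAN1, TSPAN14, VSIG2, F11R, EGFR and the low CEACAM genes were picked with their values in view. Alternatives covered scaling, pseudocount, filters, variance moderation, GC content (loess with a span of 0.5), a replicate block and each library left out. Positions come from GENCODE v29 and promoters from RefSeq (GRCh38.p14), with entries for 7 of the 9 genes. Protein sequences were not used here, and the values of some listed genes are not reported here.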

Additional observations from a re-analysis of the deposited data

How the results depend on the processing

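Of 117 comparisons of a surface antigen gene with an alternative, 101 kept their direction and their side of the threshold or moved by less than the spread between replicates, 4 passed the threshold in place of missing it or having no test, 5 moved and 7 changed direction. The 7 were EPCAM, with -0.044 to 0.22 when each library was left out, and ERBB3, with -0.18 to 0.22 when each library was left out, -0.013 with upper-quartile scaling, -0.0061 with scaling to equal totals and -0.038 with GC content correction, without and with the replicate block. The 5 that moved were the pseudocounts of 0.1 and 5 for CEACAM5 (-1.77 and -0.95) and GPA33 (-4.39 and -0.49) and that of 5 for CEACAM6 (-0.96). With all genes above 0 tested, limma gave 2 genes of the set as lower, CEACAM5 and GPA33, in a test that identical rounded duplicates can pass at a single rounding step. CEACAM5, CEACAM6 and GPA33 were under the filter in the scalings, corrections and variance settings and could not be fitted there.

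The number of genes higher and lower after APC silencing moved from 233 and 199 to 310 and 305 under median-of-ratios, 336 and 349 under upper-quartile and 343 and 369 under equal-total scaling, 952 and 515 when all genes above 0 were tested, 139 and 134 with at least 10 in every library, 368 and 352 with robust moderation and 442 and 453 with GC content correction. It was 0 and 0 without any one of the 4 libraries, with 0 genes of the set each time, where the lone library of a condition is assumed to vary like the other condition and 1119 to 1330 genes had an unadjusted p under 0.05. What causes these shifts in number was not tested.

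The replicate block gave 523 and 500 genes, and 1268 and 1272 with GC content correction. The labels give the same replicate numbers to both conditions without saying what a number marks. Across 5376 genes, which are not independent replicates, the II minus I difference of NonS and that of APC shRNA had a Pearson r of 0.724. The replicate block alone called 0 genes of the set in limma. With GC content correction it called 1 as lower, CEACAM1 (-0.29, adjusted p = 0.0167 in limma), and 1 as higher, ERBB2 (0.23, adjusted p = 0.0463 in limma). Over all alternatives but the left-out libraries the adjusted p of CEACAM1 ranged from 0.0167 to 0.394 and that of ERBB2 from 0.0463 to 0.382.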

Other observations

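Some surface proteins outside the 9 genes had larger differences than most of them without passing the threshold, and are given here because of those values. TFRC, the transferrin receptor, had NonS values of 97 and 89 against 46 and 26 with APC shRNA (log2 difference -1.40, adjusted p = 0.0935 from limma). CA9, a carbonic anhydrase induced by hypoxia, was listed at 58 and 141, then 13 and 36 (log2 difference -2.01, adjusted p = 0.179 from limma), with a wide gap between the replicates of each condition. BCAM, a laminin receptor of the Lutheran blood group, was listed at 37 and 57, then 96 and 122 (log2 difference 1.22, adjusted p = 0.093 from limma).

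Within the tetraspanins, CD81 had NonS values of 58 and 71 against 107 and 138 with APC shRNA (log2 difference 0.91, adjusted p = 0.0817 from limma), whereas CD82 was listed at 52 and 71, then 27 and 35 (log2 difference -0.96, adjusted p = 0.098 from limma). TSPAN6 had NonS values of 11 and 11 against 21 and 28 with APC shRNA (log2 difference 1.07, adjusted p = 0.0591 from limma). Each of the 3 genes had separate conditions, and whether they differ from one another was not tested.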
